A study of Mus musculus with 6 samples.

Results

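Genes of the interferon response were followed on 6 expression arrays of the mouse melanocyte line melan-a. The genes were taken from a list of 40 interferon-induced genes, chosen with earlier results of these arrays known, and 38 of them were measured, of 18193 genes measured in all. Isg15 lay on a probe set that it shares with Gm9706, and no probe set was paired with Ifi44 alone in the annotation used, so neither has a value. Where a gene had several probe sets, the brightest on average over the 6 arrays stood for it.

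Melan-a is an immortal line grown from normal pigment cell precursors of C57BL/6 mouse embryos. All 6 cultures are described as carrying an activated BRAF kinase fused to a hormone-binding domain that tamoxifen switches on (delta-BRAF-ER). In 1 culture BRAF was not activated (BRAF-off), in 1 it was activated alone (BRAF-on), and in the other 4 it was activated together with ectopic ZEB2, SNAIL2, TWIST1 or ZEB1, transcription factors of the epithelial-mesenchymal transition. The dose and time of tamoxifen, the promoter driving each factor and whether a line was 1 clone are not given in the sources used here. No array stands for tamoxifen without the construct, so activated BRAF, the drug and the culture cannot be told apart. No array is labelled as activated BRAF with a vector that lacks a factor. Each added factor, its delivery and the culture therefore cannot be told apart either. With 1 array per group no difference has a replicate check, no error can be given and no test was run. All values below are descriptions of these 6 arrays, and "higher" and "lower" mean the signals only. Ratios of an array against BRAF-on or BRAF-off are log2 ratios throughout, and plain readings are signals.

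Signals are MAS5 intensities on a linear scale, with the trimmed mean of every array (2% off each end) at 500. A floor of 63.7 signal units, the median of all values, marks what was taken as measurable. Of the 12 probe sets for the 4 introduced genes, 0 were at least 2-fold higher on the array of their own label than on BRAF-on. For Snai2 the probe set used read 3142 on the array labelled SNAIL2 against 4175 on BRAF-on. The arrays are therefore named by label only, and SNAIL2 or ZEB1 below means the array so labelled. Melanocyte markers were all above the floor on 5 arrays, while on TWIST1 only 3 of 10 were. Their summed signal was 95423 on BRAF-off, 69882 on BRAF-on, 121929 on ZEB2, 147437 on SNAIL2, 4960 on TWIST1 and 29031 on ZEB1. The markers above the floor on TWIST1 were Pax3 with 2589, Sox10 with 1941 and Mitf with 245. On BRAF-on these read 2546, 2730 and 5036, so the markers did not fall alike. In these bulk samples, fewer cells of a type and less RNA per cell cannot be told apart.

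Interferons are secreted proteins that cells make after sensing viral or misplaced nucleic acid. Type I interferon binds a cell surface receptor, whose kinases lead to the assembly of ISGF3, a complex that contains STAT2 and IRF9 and binds the interferon-stimulated response element (ISRE) in promoters. Interferon gamma acts through a different element, GAS. The genes switched on include RNA sensors, antiviral enzymes and GTPases that attack intracellular microbes. Many cell types, pigment cells among them, hold a low baseline of these genes without infection.

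Promoters of 6 of the genes are shown because they belong to members with contrasting signals described below. Each is the 250 bases before the RefSeq transcription start (GRCm38.p6), read 5′ to 3′ on the gene's own strand, and capitals mark the ISRE core, which is GAAA, any 2 bases and GAAA again, or its reverse complement. Ifit1 lies at chr19:34640639-34640888 on the plus strand and Ifit3 at chr19:34583279-34583528 on the plus strand. Gbp2 lies at chr3:142620413-142620662 and Gbp7 at chr3:142530086-142530335, both on the plus strand. Bst2 lies at chr8:71537473-71537722 and Samd9l at chr6:3399572-3399821, both on the minus strand.
Ifit1: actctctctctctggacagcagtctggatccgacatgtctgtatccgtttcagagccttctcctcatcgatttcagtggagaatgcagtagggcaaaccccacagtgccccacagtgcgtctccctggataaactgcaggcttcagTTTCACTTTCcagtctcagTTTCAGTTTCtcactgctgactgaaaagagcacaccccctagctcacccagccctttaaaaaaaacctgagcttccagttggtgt
Ifit3: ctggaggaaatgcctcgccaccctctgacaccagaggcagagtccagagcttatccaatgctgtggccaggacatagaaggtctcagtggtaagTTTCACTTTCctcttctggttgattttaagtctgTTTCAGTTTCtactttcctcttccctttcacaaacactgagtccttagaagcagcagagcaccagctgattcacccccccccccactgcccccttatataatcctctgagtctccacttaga
Gbp2: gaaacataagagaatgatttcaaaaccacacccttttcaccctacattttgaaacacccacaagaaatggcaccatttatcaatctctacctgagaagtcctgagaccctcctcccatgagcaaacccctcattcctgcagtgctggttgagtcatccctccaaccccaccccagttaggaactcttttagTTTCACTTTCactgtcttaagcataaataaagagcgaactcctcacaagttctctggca
Gbp7: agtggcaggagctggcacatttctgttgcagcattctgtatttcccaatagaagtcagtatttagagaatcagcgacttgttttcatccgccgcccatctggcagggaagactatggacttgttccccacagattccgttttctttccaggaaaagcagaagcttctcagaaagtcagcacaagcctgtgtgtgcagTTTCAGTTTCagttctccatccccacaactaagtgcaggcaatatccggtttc
Bst2: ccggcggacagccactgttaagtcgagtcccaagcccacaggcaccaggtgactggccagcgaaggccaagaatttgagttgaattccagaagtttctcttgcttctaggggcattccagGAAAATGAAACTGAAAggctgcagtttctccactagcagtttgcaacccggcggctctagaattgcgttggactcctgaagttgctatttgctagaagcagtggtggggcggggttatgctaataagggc
Samd9l: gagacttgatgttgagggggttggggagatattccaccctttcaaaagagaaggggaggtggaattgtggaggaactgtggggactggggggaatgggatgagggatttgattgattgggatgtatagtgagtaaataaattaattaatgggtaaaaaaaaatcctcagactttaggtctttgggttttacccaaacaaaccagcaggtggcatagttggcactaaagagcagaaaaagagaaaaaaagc
Ifit1 and Ifit3 each hold 2 ISRE cores, Gbp2 and Gbp7 hold 1, Bst2 holds 2 that overlap each other, and none of these letters is in the Samd9l window.

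Over windows that run on to 50 bases after the start, 16 of the 30 listed genes found in the RefSeq promoter table held an ISRE core on either strand (53.3%), against 3.99% of the 27025 genes in the table. The GAS core TTCNNNGAA, which reads the same on both strands, was in 8 of the 30 (26.7%), against 9.55% of all genes. Both motifs overlapped in 1 window, that of Bst2. Among measured members, the 15 with an ISRE core had a median log2 ratio of -1.05 for SNAIL2 against BRAF-on, and the 13 in the table without one had -0.32. For TWIST1 against BRAF-on those medians were 0.69 and 0.48, and for ZEB1 against BRAF-on 0.79 and 0.62. A match describes letters in a window and shows no binding.

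All 38 genes were above the floor on all 6 arrays, from 165 for Zbp1 on SNAIL2 to 16012 for Ifit3 on ZEB1, so the program was measurable in BRAF-off cells as well. TWIST1 and ZEB1 both stood above all 4 other arrays for 36 of the 38 members, which 17.3% of the 9937 genes above the floor on every array did. ZEB2 and SNAIL2 both stood below BRAF-on for 34 members, as did 36.3% of those genes. The highest signal was on ZEB1 for 26 members (27.6% of all genes), on TWIST1 for 11 (16.9%) and on BRAF-on for 1, Eif2ak2 (7.34%). It was on BRAF-off, ZEB2 or SNAIL2 for 0 members, against 7.95%, 5.63% and 34.6% of all genes. The lowest was on SNAIL2 for 28 (26.8% of all genes), on BRAF-off for 7 (11.9%) and on ZEB2 for 3 (7.88%). The members covered a wide range over the 6 arrays, with a median highest-over-lowest ratio of 3.06-fold against 1.73-fold for all genes, and 27 of 38 reached 2-fold (33.5% of all genes) and 14 reached 4-fold (4.52%). With the arrays quantile normalised, or centred on their median gene, TWIST1 and ZEB1 again stood above the other 4 for 36 members.

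**Figure D1:**
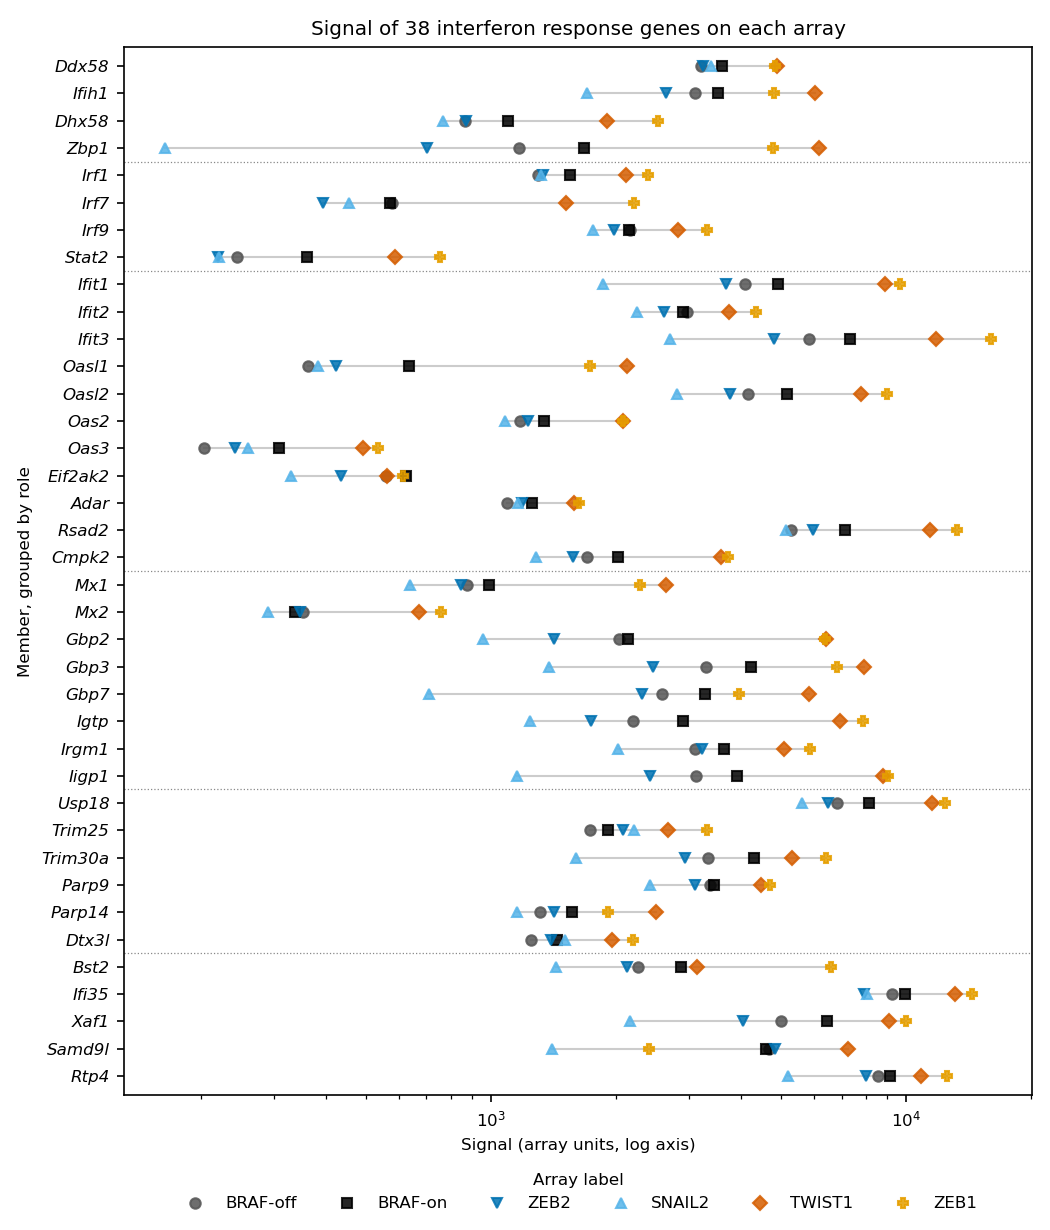
Signal of each of the 38 measured interferon response genes on the 6 arrays, 1 array per group, on a log scale in MAS5 signal units. TWIST1 and ZEB1 lie above the other 4 arrays for 36 genes, and the widest spread is that of Zbp1, from 165 on SNAIL2 to 6175 on TWIST1.

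Activated BRAF alone came with slightly higher interferon response signals. On BRAF-on 33 of the 38 members were above BRAF-off by any amount (background 49.7%), with a median log2 ratio of 0.25, while that of the 11200 genes compared lay within 0.01 of 0. By the probe sets used, none reached 2-fold, higher (background 1.04%) or lower (0.384%). Oasl1 had the highest ratio at 0.81, followed by Oas3 at 0.60, Stat2 at 0.56 and Zbp1 at 0.51. A second Cmpk2 probe set was 3.22-fold higher on BRAF-on, against 1.19-fold for the one used. The 5 below BRAF-off (background 50.3%) were Mx2 at -0.07 and Irf7, Irf9, Ifit2 and Samd9l, each within 0.03 of 0, and the sign of these last 4 turned when the arrays were centred on their median gene.

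With ZEB2 the members were lower than with BRAF alone and close to BRAF-off. Against BRAF-on 35 of 38 were lower by any amount (background 50.8%) and 3 higher (49.2%), with a median of -0.34. Only Zbp1 was at least 2-fold lower (background 0.583%), and 0 were 2-fold higher (1.76%). Against BRAF-off the median was -0.11, 25 of 38 were lower (background 47.4%) and 13 higher (52.6%), and 0 were 2-fold apart in either direction (background 1.02% higher and 0.325% lower). ZEB2 lay below both references for 24 members (36.9% of all genes) and between them for 12 (25.7%), while Samd9l and Trim25 lay above both.

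SNAIL2 gave the lowest level of the program. Against BRAF-on 36 of 38 members were lower (background 45.5%) and 2 higher (54.5%), with a median of -0.68 against 0.06 for all genes, and 12 were at least 2-fold lower (background 6.42%) and 0 higher (5.61%). Against BRAF-off, 31 were lower (background 42.2%) and 7 higher (57.8%), the median was -0.43, and 10 were at least 2-fold lower (background 5.31%) with 0 higher (4%). The poly-A control transcripts, spiked into the RNA before amplification, read 2.44-fold higher on SNAIL2 than on BRAF-on, and 0.879-fold to 1.39-fold on the other factor arrays. Their part in the result was not tested.

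TWIST1 came with higher signals for all but 1 of the genes. Against BRAF-on 37 of 38 members were higher (background 50.4%) and 1 lower (49.6%), with a median of 0.66, and 7 were at least 2-fold higher (background 2.03%) and 0 lower (2.02%). Against BRAF-off all 38 were higher (background 51.2%) and 0 lower (48.8%), with a median of 0.91, and 16 were at least 2-fold higher (background 3.11%) with 0 lower (2.61%).

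ZEB1 also came with higher signals for nearly all members. Against BRAF-on 36 of 38 were higher (background 56.7%) and 2 lower (43.3%), with a median of 0.69 against 0.07 for all genes, and 12 were at least 2-fold higher (background 4.49%) and 0 lower (3.93%). Against BRAF-off 37 were higher (background 56.6%) and 1, Samd9l, lower (43.4%), with a median of 0.97, and 19 were at least 2-fold higher (background 7.06%) with 0 lower (5.2%). The comparisons with BRAF-on share that array, as do those with BRAF-off, so they are set side by side and not counted as separate evidence. The 3 control probe sets for 18S ribosomal RNA, a gauge of ribosomal RNA carried along, read 0.480 times the BRAF-on level on TWIST1 and 0.565 times on ZEB1, and 1.06 to 1.34 times on the other factor arrays. They were low on the 2 arrays where the members were high and near the BRAF-on level on SNAIL2, and their part in the result was not tested. The 3′ over 5′ ratios, a sign of RNA integrity, stayed within 1.36 to 1.54 for beta-actin and 0.792 to 0.839 for GAPDH over the 6 arrays.

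**Figure D2:**
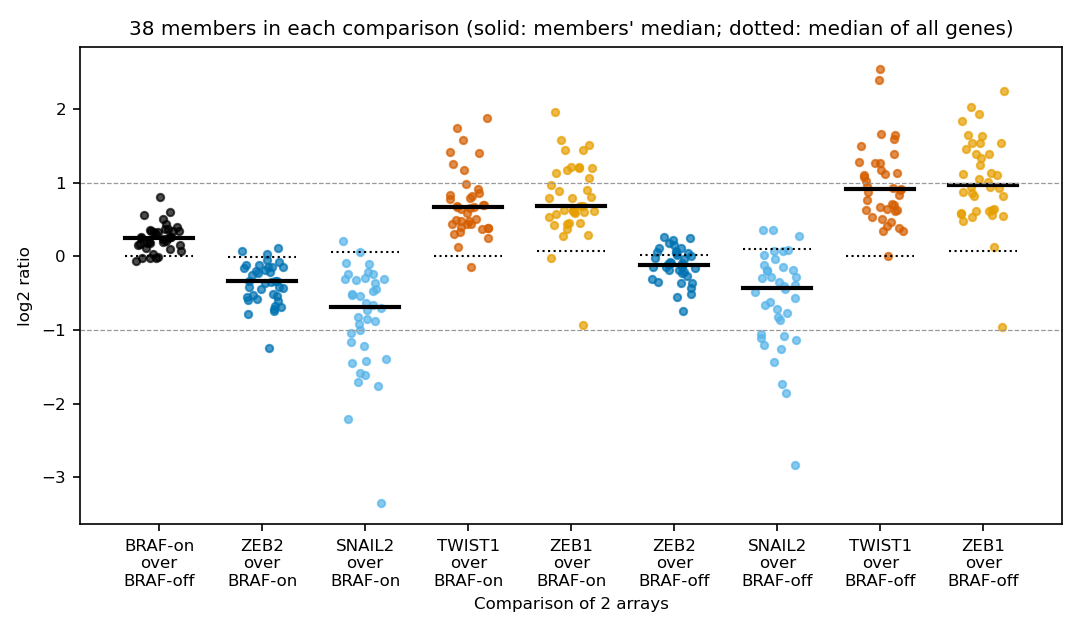
Log2 ratio of each of the 38 members in the 9 comparisons, as 1 point each. Solid bars are the members' median, dotted bars the median of all genes compared and dashed lines 2-fold. Members lie mostly above 0 for TWIST1 and ZEB1 (medians 0.66 and 0.69 against BRAF-on) and mostly below 0 for SNAIL2 (median -0.68).

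The low and high pairs of arrays could also be set directly against each other. SNAIL2 was below ZEB2 for 31 of 38 members (background 43.5%) and above it for 7 (56.5%), with a median of -0.33, and 4 were at least 2-fold lower (background 3.11%), namely Zbp1, Samd9l, Gbp7 and Iigp1. TWIST1 was below ZEB1 for 27 members (background 57.2%) and above it for 11 (42.8%), with a median of -0.13 against -0.08 for all genes. Samd9l was at least 2-fold higher on TWIST1 (background 3.31%) and Bst2 at least 2-fold lower (background 4.41%).

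Sensors of foreign nucleic acid come first in the pathway. Zbp1, a sensor of left-handed nucleic acid that can start necroptosis, had signals of 1173 on BRAF-off, 1673 on BRAF-on, 704 on ZEB2, 165 on SNAIL2, 6175 on TWIST1 and 4793 on ZEB1. Its range of 37.5-fold was the widest of the 38, with SNAIL2 far below the rest and TWIST1 and ZEB1 far above. Relative to BRAF-on the log2 ratio was -3.35 on SNAIL2, -1.25 on ZEB2, 1.88 on TWIST1 and 1.52 on ZEB1. A second Zbp1 probe set gave smaller differences, 615 on BRAF-on against 266 on SNAIL2, 552 on TWIST1 and 932 on ZEB1, so the high TWIST1 value came from the first alone.

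Ifih1, which encodes the RNA helicase MDA5, a sensor of long double-stranded RNA, had signals of 3104 on BRAF-off, 3526 on BRAF-on, 2647 on ZEB2, 1706 on SNAIL2, 6037 on TWIST1 and 4803 on ZEB1. SNAIL2 was lowest and TWIST1 highest, at log2 ratios of -1.05 and 0.78 against BRAF-on. Dhx58, encoding LGP2, a regulator of those sensors, read 868 on BRAF-off, 1099 on BRAF-on, 872 on ZEB2, 766 on SNAIL2, 1907 on TWIST1 and 2523 on ZEB1. ZEB1 was highest here, at 1.20 against BRAF-on, and ZEB2 lay on BRAF-off at 0.01. Ddx58, encoding RIG-I, the sensor of RNA ends, kept within a narrower span, from 3209 on BRAF-off to 4903 on TWIST1.

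Among the transcription factors, Irf7, the factor that amplifies interferon gene expression, read 579 on BRAF-off, 572 on BRAF-on, 394 on ZEB2, 457 on SNAIL2, 1518 on TWIST1 and 2218 on ZEB1. BRAF-on and BRAF-off were level, ZEB2 and SNAIL2 were below both, and the ratios against BRAF-on were 1.41 on TWIST1 and 1.96 on ZEB1. Stat2, a part of ISGF3, read 245 on BRAF-off, 362 on BRAF-on, 221 on ZEB2, 222 on SNAIL2, 589 on TWIST1 and 756 on ZEB1. Stat2 was lowest with ZEB2 and SNAIL2 and at 1.63 against BRAF-off with ZEB1. Irf9, the DNA-binding part of ISGF3, ranged only from 1761 on SNAIL2 to 3318 on ZEB1, and Irf1, which answers interferon gamma, from 1301 on BRAF-off to 2390 on ZEB1. None of the 4 was at least 2-fold lower than BRAF-on or BRAF-off on any array (background 0.325% to 6.42% by comparison).

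The IFIT proteins bind viral RNA and block its translation. Ifit1, whose promoter holds 2 ISRE cores, read 4095 on BRAF-off, 4917 on BRAF-on, 3689 on ZEB2, 1862 on SNAIL2, 8909 on TWIST1 and 9664 on ZEB1. Ifit3, with 2 cores as well, read 5829 on BRAF-off, 7327 on BRAF-on, 4823 on ZEB2, 2696 on SNAIL2, 11841 on TWIST1 and 16012 on ZEB1. Both were lowest on SNAIL2, at -1.40 and -1.44 against BRAF-on, and highest on ZEB1, at 0.97 and 1.13. Ifit2 moved less, from 2256 on SNAIL2 to 4360 on ZEB1. The 3 genes neighbour each other on one chromosome, within a run of 6 protein-coding genes.

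Oligoadenylate synthetases make a messenger that activates RNase L, and the OAS-like proteins share their fold. Oasl1, which restrains Irf7 translation, read 363 on BRAF-off, 635 on BRAF-on, 424 on ZEB2, 383 on SNAIL2, 2127 on TWIST1 and 1731 on ZEB1. TWIST1 and ZEB1 stood well clear of the rest, at 2.55 and 2.25 against BRAF-off. Oasl2, its neighbour, read 4164 on BRAF-off, 5159 on BRAF-on, 3775 on ZEB2, 2812 on SNAIL2, 7792 on TWIST1 and 9004 on ZEB1. Oas3 gave 204 on BRAF-off, 308 on BRAF-on, 242 on ZEB2, 260 on SNAIL2, 493 on TWIST1 and 534 on ZEB1, with BRAF-off lowest and SNAIL2 and ZEB2 between BRAF-off and BRAF-on. Oas2 spanned 1080 on SNAIL2 to 2087 on TWIST1.

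Rsad2, encoding viperin, which makes a chain-terminating nucleotide, read 5279 on BRAF-off, 7141 on BRAF-on, 5981 on ZEB2, 5141 on SNAIL2, 11404 on TWIST1 and 13303 on ZEB1. Cmpk2, its neighbour in the genome and a nucleotide kinase, read 1702 on BRAF-off, 2027 on BRAF-on, 1582 on ZEB2, 1282 on SNAIL2, 3578 on TWIST1 and 3735 on ZEB1. In each, by the probe sets used, TWIST1 and ZEB1 were high and SNAIL2 was the lowest array, at or below BRAF-off. For Rsad2 the sign against BRAF-off turned with quantile normalisation. Its other probe sets read 1043 and 2438 on BRAF-off against 1044 and 2172 on SNAIL2. A second Cmpk2 probe set read 81.1 on BRAF-off, 261 on BRAF-on and 130 on SNAIL2, so BRAF-off was lowest there. Adar, the RNA-editing enzyme that keeps own RNA from being sensed, had the narrowest range of the 38 by the probe sets used, 1.49-fold from 1095 to 1631. Its other probe sets had wider ranges, from 173 on ZEB2 to 408 on ZEB1 and from 780 on BRAF-on to 1395 on TWIST1.

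Eif2ak2, encoding PKR, the kinase that halts translation on double-stranded RNA, was, with Samd9l, one of 2 members whose TWIST1 and ZEB1 signals were not both above the other arrays. It read 560 on BRAF-off, 625 on BRAF-on, 435 on ZEB2, 330 on SNAIL2, 562 on TWIST1 and 613 on ZEB1. All 4 factor arrays lay below BRAF-on. Its 2 other probe sets also had TWIST1 below BRAF-on, but both put ZEB1 above it, at 0.46 and 0.45, so the ZEB1 value differs by probe set. Eif2ak2 was picked for full values after they were seen.

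Interferon-induced GTPases had the lowest SNAIL2 median of the 6 roles into which the list was divided, -1.19 against BRAF-on, with 5 of 8 at least 2-fold lower (6.42% of all genes). On TWIST1 and ZEB1 their medians against BRAF-on were 1.08 and 1.19, with 4 and 5 at least 2-fold higher (2.03% and 4.49% of all genes). Guanylate-binding proteins and immunity-related GTPases attack the vacuoles in which intracellular microbes live. Gbp2 read 2036 on BRAF-off, 2139 on BRAF-on, 1424 on ZEB2, 957 on SNAIL2, 6413 on TWIST1 and 6389 on ZEB1. Gbp3 read 3303 on BRAF-off, 4230 on BRAF-on, 2458 on ZEB2, 1384 on SNAIL2, 7942 on TWIST1 and 6817 on ZEB1. Gbp7 read 2586 on BRAF-off, 3279 on BRAF-on, 2311 on ZEB2, 711 on SNAIL2, 5842 on TWIST1 and 3961 on ZEB1. All 3 were lowest on SNAIL2 and high on TWIST1, with ZEB1 level with TWIST1 for Gbp2 and below it for Gbp3 and Gbp7. They sit together within a run of 4 protein-coding genes. Gbp7 was the furthest down on SNAIL2, at -2.20 against BRAF-on, with 0.27 on ZEB1, while Gbp2 was at -1.16 and 1.58. A second Gbp7 probe set gave -2.09 on SNAIL2.

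The immunity-related GTPases Igtp and Iigp1 load onto those vacuoles. Igtp read 2207 on BRAF-off, 2901 on BRAF-on, 1741 on ZEB2, 1244 on SNAIL2, 6927 on TWIST1 and 7879 on ZEB1. Iigp1 read 3126 on BRAF-off, 3920 on BRAF-on, 2423 on ZEB2, 1154 on SNAIL2, 8830 on TWIST1 and 9068 on ZEB1. ZEB1 was highest and SNAIL2 lowest for both, with ratios of -1.22 and -1.76 on SNAIL2 against BRAF-on. Irgm1, a regulator of the same family, went from 2025 on SNAIL2 to 5890 on ZEB1. The Mx dynamin-like GTPases, which trap viral nucleocapsids, were mainly set apart by their high arrays. Mx1 read 875 on BRAF-off, 991 on BRAF-on, 850 on ZEB2, 641 on SNAIL2, 2645 on TWIST1 and 2293 on ZEB1, and its TWIST1 ratio against BRAF-on was 1.42. Mx2 read 354 on BRAF-off, 338 on BRAF-on, 347 on ZEB2, 291 on SNAIL2, 670 on TWIST1 and 760 on ZEB1. Near-identical sequence among GTPase, Ifit and Oas family members may let a probe set read more than 1 gene.

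**Figure D3:**
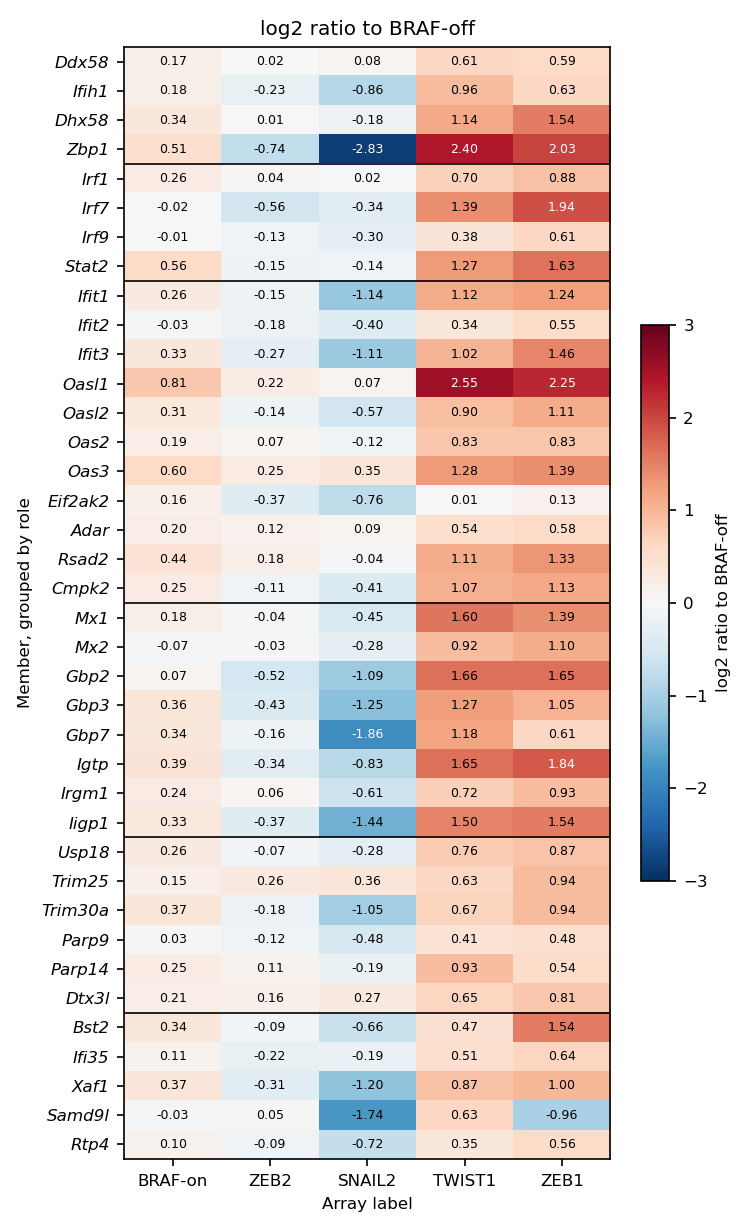
Log2 ratio of each member to BRAF-off on the other 5 arrays, grouped by role, 1 array per group. TWIST1 and ZEB1 are above 0 for nearly all members (38 and 37 of 38), and SNAIL2 is below 0 for 31.

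Of the 6 measured genes of the ubiquitin, ISG15 and ADP-ribosylation group, 0 were at least 2-fold higher in any of the 9 comparisons. The background for this was only 1.02% to 7.06% by comparison. Trim30a is a ubiquitin ligase family member. It read 3336 on BRAF-off, 4302 on BRAF-on, 2937 on ZEB2, 1608 on SNAIL2, 5312 on TWIST1 and 6422 on ZEB1. Of the 6 it was the only 1 at least 2-fold lower on SNAIL2, at -1.42 against BRAF-on (background 6.42%). Usp18, the protease that removes ISG15 and brakes the type I receptor, ranged from 5614 on SNAIL2 to 12435 on ZEB1. Parp9, Dtx3l and Parp14 are neighbours, and the first pair encode an ADP-ribosylating complex. On TWIST1 against BRAF-on they read 0.38, 0.44 and 0.68. Trim25, the ligase that activates RIG-I, was lowest on BRAF-off with 1733 and reached 3319 on ZEB1. Unlike most members it was not lower on ZEB2 or SNAIL2, with ratios of 0.11 and 0.21 against BRAF-on, though its weakest probe set gave -0.76 and -0.71.

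Of the remaining effectors, Bst2, encoding tetherin, which holds budding viruses on the cell surface, read 2268 on BRAF-off, 2872 on BRAF-on, 2126 on ZEB2, 1437 on SNAIL2, 3132 on TWIST1 and 6613 on ZEB1. ZEB1 was highest, at 1.20 against BRAF-on, TWIST1 was at 0.12, and SNAIL2 was lowest, just short of 2-fold below BRAF-on. Xaf1, linked to cell death, read 4995 on BRAF-off, 6474 on BRAF-on, 4041 on ZEB2, 2168 on SNAIL2, 9131 on TWIST1 and 10023 on ZEB1. Samd9l, a restriction factor with growth-suppressing activity, broke the pattern with 4693 on BRAF-off, 4609 on BRAF-on, 4846 on ZEB2, 1406 on SNAIL2, 7244 on TWIST1 and 2408 on ZEB1. Against BRAF-off its log2 ratio was -0.96 on ZEB1, -1.74 on SNAIL2 and 0.63 on TWIST1, so the ZEB1 array was low for this gene where it was high for most. Ifi35 ranged from 7936 to 14412 and Rtp4 from 5187 to 12585.

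Members with several probe sets allow a partial check. For 17 genes, 22 further probe sets were above the floor on all 6 arrays. Of these, 16 had the same sign as the one used for ZEB2 against BRAF-on, 18 for SNAIL2, 20 for TWIST1 and 19 for ZEB1. For SNAIL2 the other sign came from probe sets of Dhx58, Adar, Trim25 and Rtp4. For ZEB2 it came from probe sets of those genes and of Dtx3l and Xaf1. Against BRAF-off the signs matched for 21 on TWIST1 and all 22 on ZEB1, for 15 on ZEB2 and for 13 on SNAIL2.

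**Figure D4:**
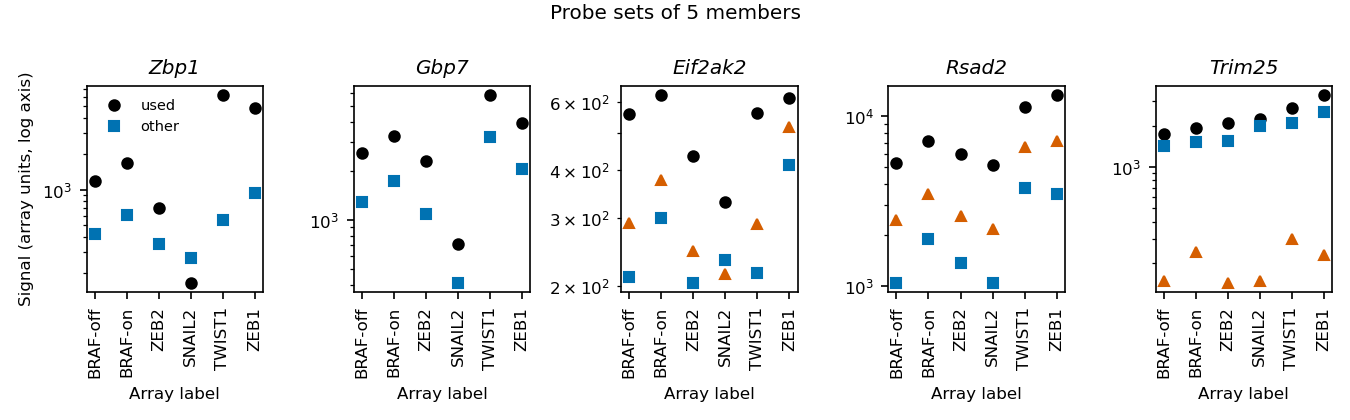
Signals of each probe set of Zbp1, Gbp7, Eif2ak2, Rsad2 and Trim25 on the 6 arrays, on log axes in MAS5 signal units. Black circles are the probe set used for the gene's value and blue and orange symbols the others. The Zbp1 probe sets differ most on TWIST1, where the one used reads 6175 and the other 552.

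Upstream, the interferons themselves were near the limit of measurement. Of 7 listed interferon genes 4 were measured, and none was above the floor except Ifna4 with 74.1 on TWIST1 and Ifnb1 with 71.1 on ZEB1. All 6 receptor genes were above the floor on every array. In the 9 comparisons with BRAF-on or BRAF-off 1 was 2-fold apart. It was Il10rb, higher on SNAIL2 than on BRAF-on (background 5.61%). Of the 8 measured kinases, STATs and IRFs outside the list, Irf8, a factor of immune cell development, had signals of 60.8 on BRAF-off, 252 on BRAF-on, 104 on ZEB2, 104 on SNAIL2, 159 on TWIST1 and 562 on ZEB1, with BRAF-off under the floor and ZEB1 highest. Irf5, another factor of the family, was at -1.01 on SNAIL2 and 0.98 on ZEB1 against BRAF-on, and at 1.75 on ZEB1 against BRAF-off. The kinases Jak1, Jak2 and Tyk2 were within 2-fold in the 9 comparisons with BRAF-on or BRAF-off, while Tyk2 read 232 on TWIST1 and 481 on ZEB1.

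Of 10 sensing adaptors and kinases above the floor, Ifi204, a DNA sensor, read 834 on BRAF-off, 1245 on BRAF-on, 890 on ZEB2, 417 on SNAIL2, 2037 on TWIST1 and 2150 on ZEB1. As for most members, SNAIL2 was lowest and ZEB1 and TWIST1 highest. Ikbke, a kinase that activates IRF factors, was 1.09 against BRAF-on on ZEB1, and Cgas, the enzyme that senses cytosolic DNA, was lower there at -1.13. Among 8 regulators, 7 were within 2-fold in those 9 comparisons. By comparison and direction, only 0.325% to 7.06% of all genes were at least 2-fold apart. The other regulator in that list, Isg20, is an interferon-induced exonuclease. It read 996 on BRAF-off, 1375 on BRAF-on, 891 on ZEB2, 258 on SNAIL2, 2185 on TWIST1 and 3311 on ZEB1. Of 5 measured genes of nucleic acid clearance, Dnase2a was 1.58 on ZEB1 and Rnaseh2b -1.25 on SNAIL2, both against BRAF-on.

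Antigen presentation genes, many of them driven by interferon, were also higher on TWIST1 and ZEB1. Of the 11 measured genes of MHC class I presentation, 11 were higher on TWIST1 and 11 on ZEB1 than on BRAF-off (51.2% and 56.6% of all genes), with medians of 1.09 and 1.22. At least 2-fold higher were 7 and 9 (3.11% and 7.06% of all genes). On SNAIL2 10 of 11 were lower than on BRAF-on (45.5% of all genes), with a median of -0.68, and the exception was Tapbp, which helps load peptides, at 0.29. Psmb8, an immunoproteasome subunit, read 753 on BRAF-off, 1280 on BRAF-on, 697 on ZEB2, 563 on SNAIL2, 3422 on TWIST1 and 2642 on ZEB1. Tap1, the peptide transporter, read 924 on BRAF-off, 1310 on BRAF-on, 1020 on ZEB2, 1104 on SNAIL2, 3239 on TWIST1 and 2565 on ZEB1. Targets of NF-kB, a pathway that works with IRFs, gave medians against BRAF-on of 0.57 on TWIST1 and 0.70 on ZEB1 over 11 genes above the floor on at least 1 array, with 8 of the 11 higher on each (50.4% and 56.7% of all genes). Il6, an inflammatory cytokine, was at 1.11 on TWIST1 but -1.31 on ZEB1 against BRAF-on, and at -2.03 on SNAIL2. The SNAIL2 signal of Il6, 50.6, was under the floor, so the floor value stood in for it. The chemokine gene Ccl2 was at -2.23 on SNAIL2, 1.04 on TWIST1 and 0.75 on ZEB1. Ccl5, a chemokine controlled by both pathways, read 1008 on BRAF-off, 2167 on BRAF-on, 1466 on ZEB2, 1338 on SNAIL2, 5448 on TWIST1 and 6840 on ZEB1.

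**Figure D5:**
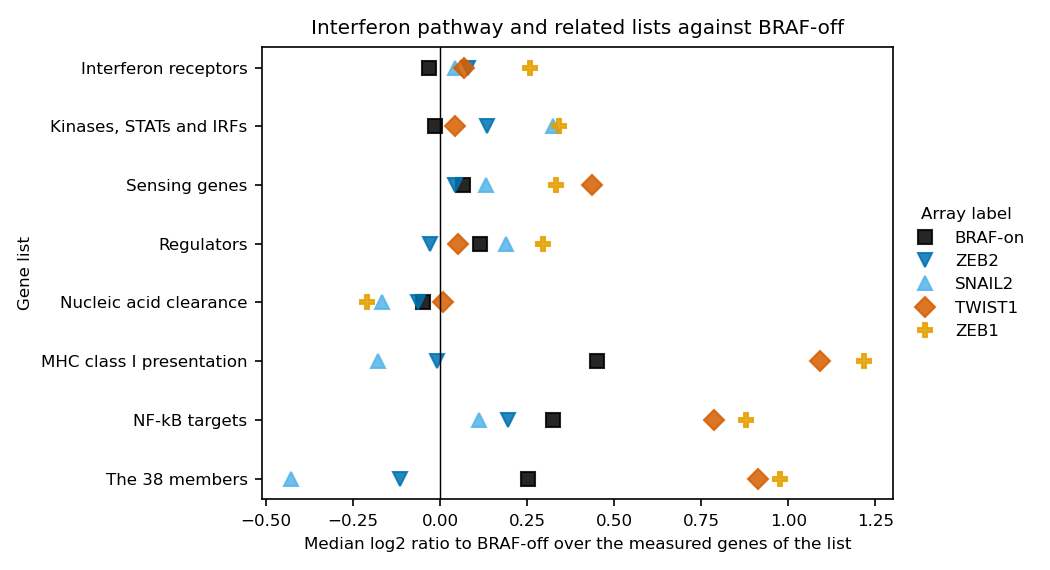
Median log2 ratio to BRAF-off of 7 wider gene lists and of the 38 members (vertical axis), with 1 symbol per array label. MHC class I genes lie high on TWIST1 and ZEB1, with medians of 1.09 and 1.22 against BRAF-off.

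Markers of other cell types were read beside these values. Of 14 leukocyte and macrophage markers, 9 were under the floor on every array, including Ptprc and Itgam. The other 5 were all higher on ZEB1 than on BRAF-on (56.7% of all genes). Only Cd68 was at least 2-fold higher there (4.49% of all genes), with 466 against 128. Cd68 was also at least 2-fold higher on SNAIL2, with 258 (5.61% of all genes), where 3 of the 5 were lower than on BRAF-on (45.5%). The summed signal of the list was 831 to 977 on 5 arrays and 1541 on ZEB1. Fibroblast markers summed to 7123 to 9221 on 5 arrays and 17522 on TWIST1, with 9 of 10 above the floor there. Of the keratinocyte markers 5 of 8, and of the endothelial markers 3 of 6, were under the floor on every array, with summed signals of 427 to 575 and 138 to 396. The part of these lists, and of the melanocyte markers given above, in the values of the 4 factor arrays was not tested.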

How the data were processed

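Total RNA of 6 melan-a cultures, 1 per group, was amplified by 3′ in vitro transcription and read on 1-colour Affymetrix arrays, per the labels' protocols. The authors deposited linear signal intensities. Per the submitters' processing notes these came from MAS5 in Affymetrix Expression Console 1.1, and the values show a 2% trimmed mean of 500 on every array.

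Only the 34945 of 45037 probe sets (controls aside) that the platform annotation pairs with a single symbol were used (932 had several and 9160 none), giving 18193 genes, each by its brightest probe set. Log2 signals were taken after lifting values below the floor, 63.7, to it. Comparisons hold genes at or above the floor on at least 1 of the 2 arrays, and 2-fold was the size counted. Background percentages are shares of all genes so compared. With 1 array per group no test was made, and the number of arrays limits the precision.

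Members and gene lists were chosen with earlier results of these data known. All 6 signals were printed for members at least 2-fold apart from BRAF-on or BRAF-off, and for Eif2ak2; the other members are given by ranges or ratios. The genes named from the wider lists are examples, and not all that were 2-fold apart are named. Alternatives tried were other normalisations, floors, probe set rules and folds. Computations used Python 3.11.15, numpy 2.4.6 and pandas 2.3.3 and were tested on simulated data. Promoters came from RefSeq (GRCm38.p6).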

Additional observations from a re-analysis of the deposited data

How the results depend on the processing

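Each of the 9 medians over the members was recomputed under 9 alternatives: quantile normalization, centring, higher floors, no floor, the floor as a pseudocount, brighter genes only, the median of a gene's probe sets, and probe sets without shared-sequence suffixes. No median changed sign. Against BRAF-on the medians ran from -0.37 to -0.33 for ZEB2, -0.75 to -0.61 for SNAIL2, 0.55 to 0.66 for TWIST1 and 0.65 to 0.78 for ZEB1. Counts depended on the fold chosen. With 3-fold in place of 2-fold, members lower on SNAIL2 numbered 5 against BRAF-on and 3 against BRAF-off (1.54% and 1.2% of all genes). Those higher on TWIST1 numbered 2 and 5 (0.635% and 1.08%), and those higher on ZEB1 numbered 1 and 6 (0.964% and 2.16%). On ZEB2 the single member lower than on BRAF-on was no longer counted (0, against 0.00883% of all genes). No paired analysis was possible because each group has 1 array, and no array could be left out for the same reason. The genes that encode the interferons themselves, unlike the members, had signals near or under the floor, which limits what can be said of those genes.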
